A study of Homo sapiens with 12 samples.

Results

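Described here are 10 genes of major histocompatibility complex (MHC) class I antigen presentation and of the immunoproteasome: HLA-B, HLA-E, HLA-F, B2M, TAP1, TAP2, TAPBP, PSMB8, PSMB9 and PSMB10. They were taken by gene symbol from the annotation of the array's probe sets, a probe set being a group of short probes that is read as 1 value. The symbols matched 23 of 54613 probe sets, and 10 of the 19775 genes left when 1 probe set was kept per gene. They were followed in 2 established lines, L428 and L1236, grown from classical Hodgkin lymphoma, whose tumour cells descend from B cells. There were 4 groups with 3 arrays each: L428 after 1 µM 5-Aza-dC, untreated L428, L1236 after 1 µM 5-Aza-dC and untreated L1236. 5-Aza-dC, or decitabine, takes the place of deoxycytidine in newly made DNA, where methyltransferases bind it and are lost, so that methylation is not copied. Treated cells had the drug for 24 h and drug-free medium for 72 h before RNA was taken. Each cell line stands for a single tumour. The labels do not say whether replicates came from separate cultures, so the p-values cover the spread between these arrays, which may be technical.

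MHC class I molecules carry peptides from inside the cell to its surface, where CD8 T cells read them. A heavy chain such as HLA-B pairs with the small invariant chain beta-2-microglobulin, encoded by B2M. The peptides come mostly from the proteasome, whose catalytic subunits are exchanged for PSMB8, PSMB9 and PSMB10 in the immunoproteasome. The TAP1/TAP2 pump moves peptides into the endoplasmic reticulum, and tapasin, encoded by TAPBP, holds the pump and the empty heavy chain together for loading. Interferons raise most of these genes, and loss of class I from the cell surface is common in Hodgkin lymphoma.

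Values are log2 signals, on which a difference of 1 is a doubling. The lowest array median was 3.01 and the highest 3.09, and the brightest probe set of an array lay between 16.24 and 16.62. Treated replicate 1 of each line stood apart: its deviations from its group mean over all genes had an SD of 0.449 (L428) and 0.384 (L1236), while the other 10 arrays had 0.156 to 0.315. The array most like treated L428 replicate 1 was an untreated L428 one. The source name of untreated L1236 replicate 1 describes treated L428 cells, while its description places it in the group used here, and it correlated best with untreated L1236 replicate 3. Results are therefore also given without the arrays numbered 1 and, for L1236, without that array. Of 6 Hodgkin cell markers CCL17, CCL22 and MSC rose in L1236 and CCL22 rose in L428, with sums per array of 61.6 to 62.6 in treated and 57.7 to 59.4 in untreated L428, and of 64.1 to 68.4 in treated and 54.6 to 55.9 in untreated L1236. TNFRSF8, which encodes the Hodgkin marker CD30, averaged 10.17 in treated and 10.39 in untreated L428, and 9.59 in treated and 9.57 in untreated L1236. Of 5 B-cell markers PAX5 rose in L428 and CD79B in L1236, with sums of 20.3 to 21.5 in treated and 19.9 to 20.2 in untreated L428, and of 29.0 to 30.0 in treated and 26.8 to 28.0 in untreated L1236. PAX5 was higher in untreated L1236 than in untreated L428 by 6.46, while MS4A1 (CD20) was at 2.46 to 2.55 in all 4 groups. Among 7 markers of T and NK cells, CD3D and CD8A rose in L1236 and 0 rose in L428, where 1 passed at an unadjusted p under 0.05. Their summed log2 signal per array was 26.31 to 27.02 in treated and 19.19 to 20.19 in untreated L1236, with CD3E at 1.74 in treated and 1.75 in untreated cells. Of 7 stromal, endothelial and epithelial markers 4 rose in L1236 and 0 in L428, where 1 passed at an unadjusted p under 0.05, with sums of 40.5 to 42.6 in treated and 31.5 to 32.4 in untreated L1236. Of 4 myeloid markers 1 rose in L1236 and 0 in L428, where 0 passed at an unadjusted p under 0.05, and CD14 was at 2.26 to 2.28 in all 4 groups. The part of such changes in the results below was not tested, and in bulk RNA a change in the number of cells that express a gene and one in the RNA per cell cannot be told apart.

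Of the 10 genes 8 lie in the MHC on chromosome 6, B2M lies on chromosome 15 and PSMB10 on chromosome 16 (RefSeq, GRCh38.p14). PSMB8, TAP1 and PSMB9 are neighbours. TAP1 (chr6:32845209-32853704, minus strand) and PSMB9 (chr6:32854192-32859851, plus strand) run away from each other from starts 488 bases apart. Promoter windows of 300 bases, 250 before and 50 after the annotated start, were matched in RefSeq for 9 of the 10 genes, HLA-E being the exception, with a second window for TAP1 and for PSMB8. The windows below show the divergent pair TAP1 and PSMB9, the light chain gene B2M, the heavy chain genes HLA-B and HLA-F, of which HLA-F was called in both lines and HLA-B in L1236, and TAPBP, a gene called in neither line. Capitals mark matches on either strand to GAAA, any 2 bases and GAAA, the core of the interferon-stimulated response element (ISRE), and to the NF-kappaB consensus. Overlapping matches run together.

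TAP1, chr6:32853655-32853954, minus strand: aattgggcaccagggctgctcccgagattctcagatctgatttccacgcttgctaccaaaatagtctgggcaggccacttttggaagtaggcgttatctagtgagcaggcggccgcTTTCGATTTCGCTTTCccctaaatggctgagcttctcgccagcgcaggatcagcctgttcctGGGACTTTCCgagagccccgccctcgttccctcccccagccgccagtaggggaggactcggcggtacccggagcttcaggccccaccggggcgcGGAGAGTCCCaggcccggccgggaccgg
PSMB9, chr6:32853942-32854241, plus strand: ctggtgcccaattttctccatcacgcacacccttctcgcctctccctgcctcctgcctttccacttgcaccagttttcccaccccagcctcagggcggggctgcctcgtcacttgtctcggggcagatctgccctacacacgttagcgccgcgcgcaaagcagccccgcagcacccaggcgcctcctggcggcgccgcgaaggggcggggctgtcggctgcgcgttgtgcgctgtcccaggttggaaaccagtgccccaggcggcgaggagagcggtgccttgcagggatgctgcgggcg
B2M, chr15:44711267-44711566, plus strand: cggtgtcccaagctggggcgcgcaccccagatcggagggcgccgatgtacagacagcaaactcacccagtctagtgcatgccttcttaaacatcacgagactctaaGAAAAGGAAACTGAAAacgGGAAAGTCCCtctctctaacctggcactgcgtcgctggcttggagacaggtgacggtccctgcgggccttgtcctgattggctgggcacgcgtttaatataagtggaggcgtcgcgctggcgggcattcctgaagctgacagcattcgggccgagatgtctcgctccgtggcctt
HLA-B, chr6:31357130-31357429, minus strand: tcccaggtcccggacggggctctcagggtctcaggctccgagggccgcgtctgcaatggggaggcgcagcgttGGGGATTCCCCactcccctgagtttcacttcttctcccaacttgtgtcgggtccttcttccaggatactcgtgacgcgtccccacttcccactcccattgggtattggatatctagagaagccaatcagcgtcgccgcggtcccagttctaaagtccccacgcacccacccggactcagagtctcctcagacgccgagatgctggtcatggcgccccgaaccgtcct
HLA-F, chr6:29723184-29723483, plus strand: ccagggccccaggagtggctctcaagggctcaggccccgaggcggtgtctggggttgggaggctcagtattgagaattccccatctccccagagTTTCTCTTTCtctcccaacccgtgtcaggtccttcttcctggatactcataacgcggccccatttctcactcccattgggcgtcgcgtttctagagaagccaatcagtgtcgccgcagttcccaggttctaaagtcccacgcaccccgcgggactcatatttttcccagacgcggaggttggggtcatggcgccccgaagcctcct
TAPBP, chr6:33314029-33314328, minus strand: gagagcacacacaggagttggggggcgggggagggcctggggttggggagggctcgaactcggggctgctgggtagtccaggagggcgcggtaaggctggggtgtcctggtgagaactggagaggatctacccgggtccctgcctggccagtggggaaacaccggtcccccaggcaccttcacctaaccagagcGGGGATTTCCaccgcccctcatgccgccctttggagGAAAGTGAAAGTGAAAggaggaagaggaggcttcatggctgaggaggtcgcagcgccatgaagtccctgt

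The ISRE letters occurred in 7 of the 11 windows of the 9 genes, and in 3.57% of all 35116 windows. The 7 genes with them were HLA-F, B2M, TAP1, TAP2, TAPBP, PSMB8, in its second window, and PSMB10. In B2M, TAP1 and TAPBP the letters occurred at 2 overlapping places. TAPBP, which held them, passed the test in neither line, and PSMB9, which lacked them in its own window, rose in both lines. Whether the letters bear on the changes was not tested. The windows of TAP1 and PSMB9 share 13 bases, and the ISRE letters of TAP1 began 134 and 128 bases before the TAP1 start. The NF-kappaB consensus was matched in 4 of the 11 windows, from HLA-B, B2M, TAP1 and TAPBP, and in 5.91% of all windows. HLA-B and HLA-F have windows that are 79.7% identical in alignment, yet HLA-B held the NF-kappaB letters and HLA-F the ISRE letters. CpG dinucleotides, the sites that DNA methyltransferases modify, numbered 7 in PSMB10, 12 in TAPBP and 26 in PSMB9, with a median of 22 over the first window of each of the 9 genes and of 14 over all windows. A match describes these letters and is no evidence of binding, and no methylation was measured.

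Treated L428 cells had more transcript of 6 of the 10 genes by limma (adjusted p under 0.05): PSMB9, PSMB8, HLA-E, B2M, HLA-F and TAP2. The share of all genes called higher in L428 was 3.32%, and 4.65% were called in either direction. In treated L1236 cells 5 of the 10 rose, namely HLA-E, HLA-B, HLA-F, PSMB9 and TAP1, against 8.59% of all genes called higher and 14.9% called either way. HLA-E, HLA-F and PSMB9 rose in both lines, and 0 of the 10 fell in either, where 1.34% of all genes fell in L428 and 6.35% in L1236. The median change of the 10 genes was 1.10 in L428 and 0.73 in L1236, beside -0.020 and -0.029 over all genes. Every treated array lay above every untreated array for 9 of the 10 genes in L428, where 9.21% of all genes did so, and for 7 in L1236, where 15.8% did. When the arrays numbered 1 were left out, 9 rose in L428 and 8 in L1236. That fit called 14.4% and 16.7% of all genes higher, and 28.9% and 34.5% either way. With the untreated L1236 array of conflicting labels left out, 4 rose in each line. Beside them 577 of 19775 genes were called higher in L428 and 1418 in L1236, or 3.94% and 11.6% either way. Single arrays moved the L428 count to 2 with treated L428 replicate 3 left out. There 317 of all genes were called higher and 1.86% either way. The count was 3 without treated replicate 2, untreated replicate 2 or untreated replicate 3 of L428. In these fits 322, 351 and 348 of all genes were called higher, and 1.96%, 2.39% and 2.31% either way.

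**Figure D1:**
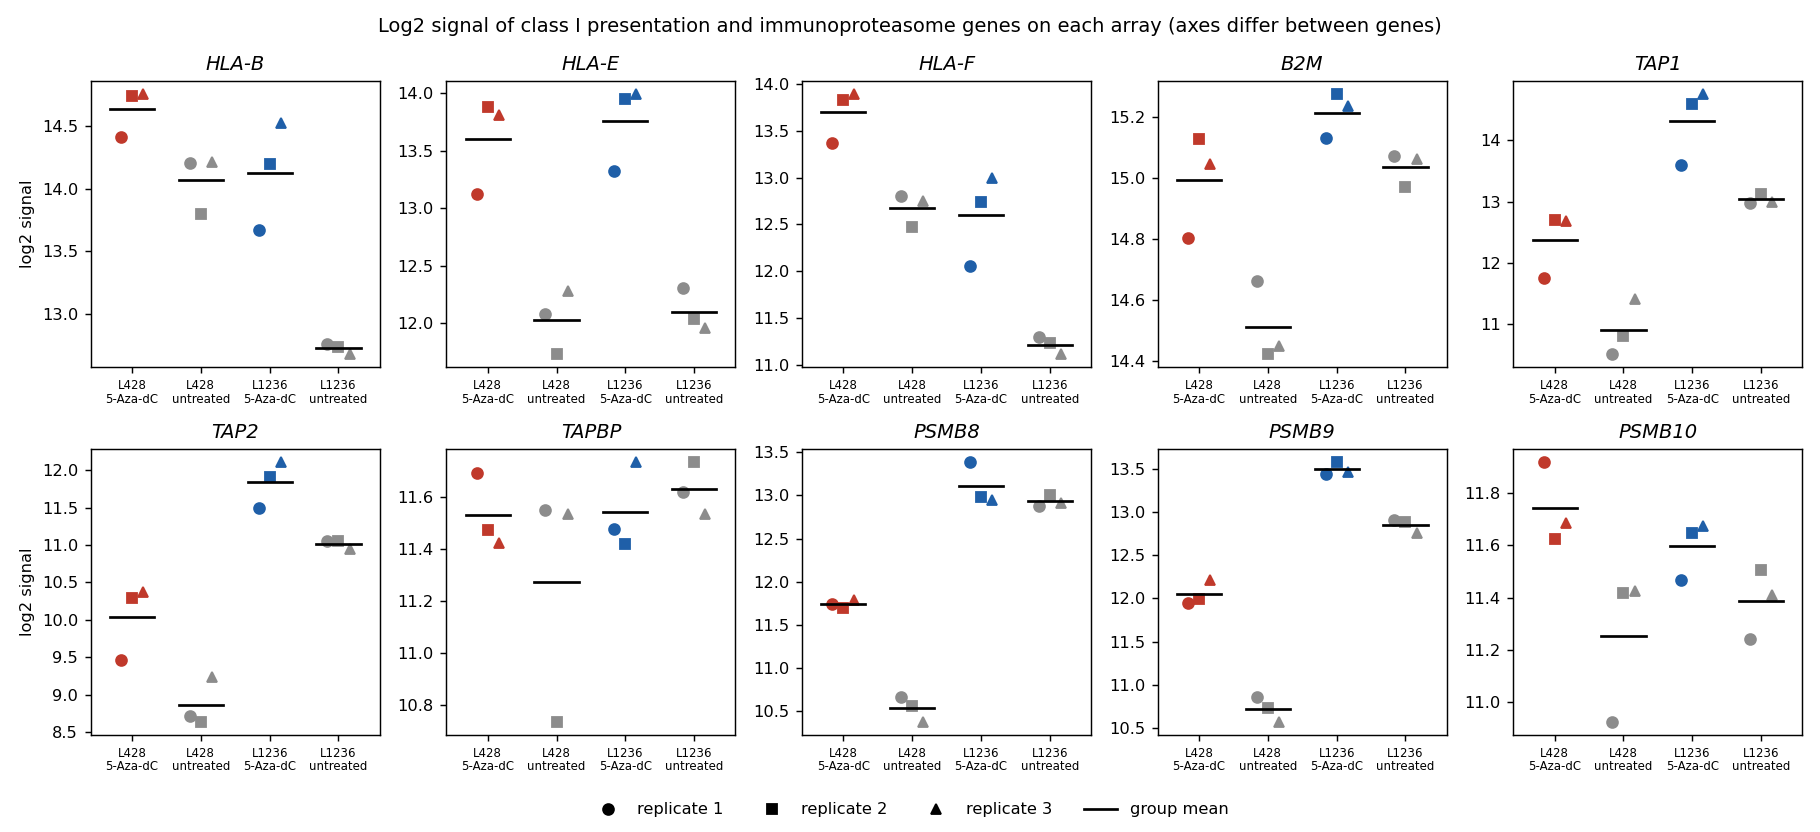
Log2 signal of each of the 10 genes on each of the 12 arrays. Points are single arrays, shaped by replicate number, bars are group means (n = 3), and the axis range differs between genes. PSMB8 and PSMB9 show treated and untreated L428 arrays far apart and all L1236 arrays above them, while TAPBP overlaps in every group.

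HLA-E, a non-classical heavy chain that presents leader peptides of other class I chains to NK-cell receptors, had the largest change of the 10 genes in both lines on the probe set used for each gene. On single probe sets TAP2 had a larger difference in L428 and HLA-F in L1236, and with averaged probe sets HLA-F (1.68) had a larger change in L1236 than HLA-E (1.52). Its signal was 13.12, 13.88 and 13.81 in treated L428 against 12.08, 11.73 and 12.28 in untreated L428, a rise of 1.58 ± 0.25 (SE), or 2.98-fold (limma adjusted p = 0.0106). In treated L1236 it was 13.32, 13.95 and 13.99 against 12.30, 12.04 and 11.96 untreated, a rise of 1.66 ± 0.25, or 3.15-fold (adjusted p = 0.00328). Untreated arrays of the lines overlapped, as did treated ones, and in both lines replicate 1 was the lowest treated array. The response of L1236 minus that of L428 was 0.082 ± 0.36 (adjusted p = 0.967). The L428 call was lost without treated L428 replicate 3 (adjusted p = 0.0521) and with only the L428 groups in the fit (0.101). All 3 probe sets of HLA-E passed the test in each line. The set used for the values above, 200905_x_at, is marked as matching several transcripts, so its signal may include other heavy chains. The 1 set not marked as matching several transcripts, 200904_at, read 10.27, 11.30 and 11.40 in treated L428 against 9.13, 8.57 and 8.87 untreated, and 10.67, 11.30 and 11.48 in treated L1236 against 9.46, 9.13 and 8.95 untreated. This set had the largest changes of the 3, at 2.13 ± 0.33 in L428 and 1.97 ± 0.33 in L1236.

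HLA-B, a classical heavy chain that presents peptides to CD8 T cells, rose in L1236. The signal was 13.67, 14.19 and 14.52 in treated L1236 against 12.77, 12.74 and 12.68 untreated, a rise of 1.40 ± 0.21, or 2.63-fold (limma adjusted p = 0.00276). In L428 it was 14.41, 14.74 and 14.75 treated against 14.20, 13.80 and 14.21 untreated, a difference of 0.56 ± 0.21 (adjusted p = 0.169). The L428 arrays did not overlap, but the gap between the lowest treated and the highest untreated array was small. The responses of the lines, L1236 minus L428, differed by 0.83 ± 0.29, which did not pass the test (adjusted p = 0.175). This difference passed without treated L1236 replicate 1 (1.06, adjusted p = 0.0191) and with array weights (1.045, adjusted p = 0.00374). The L428 difference was 0.74 ± 0.17 and passed without the arrays numbered 1 (adjusted p = 0.0275). The 3 probe sets of HLA-B changed by 0.44 to 0.58 in L428 and by 1.30 to 1.40 in L1236. All 3 carry the suffix _x_at, which marks probes that match several transcripts, so the signal of HLA-B cannot be separated from that of related heavy chains.

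HLA-F, a non-classical heavy chain that can reach the surface without peptide, rose in both lines. It measured 13.37, 13.83 and 13.89 in treated L428 against 12.80, 12.48 and 12.75 untreated, a rise of 1.02 ± 0.23 (limma adjusted p = 0.0420). The rise in L1236 was 1.38 ± 0.23 (adjusted p = 0.00533), with 12.06, 12.74 and 13.00 treated against 11.30, 11.24 and 11.12 untreated. Treated and untreated arrays were apart in each line, by the least at treated replicate 1. The L428 call of HLA-F was near the threshold and was lost in 12 of 19 alternative settings, with adjusted p-values up to 0.169. The set used, 221875_x_at, carries the mark for several transcripts, so its signal may include other heavy chains. The set 221978_at, without that mark, read 6.19, 6.67 and 6.61 in treated L428 against 5.69, 5.17 and 5.23 untreated. In L1236 this set read 4.78, 5.57 and 6.54 treated against 3.99, 3.11 and 3.46 untreated, and it rose by 2.11 ± 0.41 in L1236 only by the test (adjusted p = 0.0155, and 0.214 in L428). Its responses in the lines differed by 0.98 ± 0.59 (adjusted p = 0.592).

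B2M, the light chain of every class I molecule, moved little on the probe set used. It read 14.80, 15.13 and 15.05 in treated L428 against 14.66, 14.42 and 14.45 untreated, a rise of 0.48 ± 0.09, or 1.39-fold (limma adjusted p = 0.0216). In L1236 it read 15.13, 15.27 and 15.24 treated against 15.07, 14.97 and 15.06 untreated, a difference of 0.18 ± 0.09 (adjusted p = 0.234). The treated L1236 arrays lay just above the untreated ones. A second set, 216231_s_at, passed in both lines, with rises of 0.89 ± 0.07 in L428 (adjusted p = 3.84e-04) and 0.35 ± 0.07 in L1236 (adjusted p = 0.0162). On that set the L1236 response was smaller than the L428 response, by -0.54 ± 0.10 (adjusted p = 0.0270). The remaining set, 232311_at, overlapped between treated and untreated arrays in both lines, and its untreated L428 arrays alone ranged from 5.13 to 6.77. The L428 call of B2M was lost when its probe sets were averaged (adjusted p = 0.0671), with only the L428 groups in the fit (0.177) and without untreated L428 replicate 2 or 3 or treated L428 replicate 2 or 3 (adjusted p = 0.0779 to 0.0950).

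TAP1, the first chain of the peptide pump, differed between treated and untreated arrays by similar amounts in the lines. It read 11.76, 12.70 and 12.69 in treated L428 against 10.52, 10.81 and 11.41 untreated, a difference of 1.47 ± 0.37 (limma adjusted p = 0.0586). With replicate number as a block, which the L428 arrays bear out as a pairing, the same difference passed (adjusted p = 0.0175). In L1236 TAP1 rose by 1.27 ± 0.37, or 2.42-fold, with 13.59, 14.58 and 14.75 treated against 12.98, 13.13 and 13.00 untreated (adjusted p = 0.0488). Treated replicate 1 lay about 1 unit below the other treated arrays in each line, at 11.76 and 13.59, and the arrays of the groups did not overlap. The L1236 call was lost in 11 of 19 settings, including without the untreated array with conflicting labels (adjusted p = 0.113). TAP1 rose, when the arrays numbered 1 were left out, by 1.59 ± 0.20 in L428 (adjusted p = 0.00387) and by 1.60 ± 0.20 in L1236 (adjusted p = 0.00275).

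TAP2, the partner chain, rose in L428, by 1.18 ± 0.27 or 2.27-fold (limma adjusted p = 0.0408). Its signal was 9.46, 10.30 and 10.37 in treated L428 against 8.71, 8.63 and 9.23 untreated. In L1236 it was 11.49, 11.91 and 12.11 treated against 11.05, 11.05 and 10.94 untreated, a difference of 0.82 ± 0.27 (adjusted p = 0.0725). Arrays of treated and untreated cells were apart in both lines. The L428 call was lost in 12 of 19 settings, with adjusted p-values up to 0.216. Of the 4 probe sets of TAP2 none passed in either line when all 54613 probe sets were tested, with differences of -0.0067 to 2.22 in L428 and 0.69 to 1.54 in L1236. The lowest of these, from 208428_at, came from a set at 2.36 to 2.41 on all L428 arrays, near the bottom of the scale. TAP2 rose, with those arrays left out too, by 1.40 ± 0.20 in L428 (adjusted p = 0.00624) and 1.01 ± 0.20 in L1236 (adjusted p = 0.0149).

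TAPBP, the tapasin gene, was not called in either line. Its signal was 11.69, 11.47 and 11.42 in treated L428 against 11.55, 10.74 and 11.54 untreated, a difference of 0.26 ± 0.20 (limma adjusted p = 0.561). It was 11.47, 11.42 and 11.73 in treated L1236 against 11.62, 11.73 and 11.53 untreated, a difference of -0.085 ± 0.20 (adjusted p = 0.785). The groups overlapped in both lines, and untreated L428 replicate 2 lay below all other arrays. Without that array the L428 difference was -0.013. None of its 3 probe sets passed in either line, with differences of 0.26 to 0.87 in L428 and -0.085 to 0.34 in L1236.

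PSMB9, the immunoproteasome subunit that replaces PSMB6, had the smallest adjusted p of the 10 genes in both lines. It read 11.94, 11.998 and 12.21 in treated L428 against 10.86, 10.73 and 10.57 untreated, a rise of 1.33 ± 0.09, or 2.51-fold (limma adjusted p = 1.37e-04). In L1236 it read 13.44, 13.58 and 13.47 treated against 12.91, 12.89 and 12.75 untreated, a rise of 0.64 ± 0.09, or 1.56-fold (adjusted p = 0.00241). Arrays within a group lay close together, treated replicate 1 included, and the groups stood well apart. Both calls held in all 19 alternative settings. The L1236 rise was the smaller, by -0.69 ± 0.13 (adjusted p = 0.0229). That difference lost its call in 7 settings, with adjusted p-values of 0.0507 to 0.0609, among them the fit without the untreated array with conflicting labels (0.0507).

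PSMB8, which replaces PSMB5, rose in L428 alone by the test. It read 11.75, 11.70 and 11.79 in treated L428 against 10.66, 10.56 and 10.37 untreated, a rise of 1.21 ± 0.12, or 2.31-fold (limma adjusted p = 6.72e-04). In L1236 it read 13.39, 12.98 and 12.95 treated against 12.88, 13.00 and 12.92 untreated, a difference of 0.17 ± 0.12 (adjusted p = 0.343). Treated L1236 replicate 1 was the only array of that line above the rest, and the groups overlapped. Leaving out the arrays numbered 1 gave an L1236 difference of 0.0038 ± 0.076 (adjusted p = 0.972). The L1236 response was smaller than the L428 response by -1.04 ± 0.16 (adjusted p = 0.0102), and this call held in all 18 alternative settings, with adjusted p-values up to 0.0335.

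PSMB10, which replaces PSMB7, passed in neither line. It read 11.92, 11.63 and 11.69 in treated L428 against 10.92, 11.42 and 11.42 untreated, a difference of 0.49 ± 0.14 (limma adjusted p = 0.0984). In L1236 it read 11.47, 11.65 and 11.67 treated against 11.24, 11.51 and 11.41 untreated, a difference of 0.21 ± 0.14 (adjusted p = 0.354). The L428 groups did not overlap, with untreated replicate 1 the lowest and treated replicate 1 the highest, while the L1236 groups did. PSMB10 rose in both lines once the arrays numbered 1 were left out, by 0.24 ± 0.045 in L428 (adjusted p = 0.0150) and 0.20 ± 0.045 in L1236 (adjusted p = 0.0206).

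**Figure D2:**
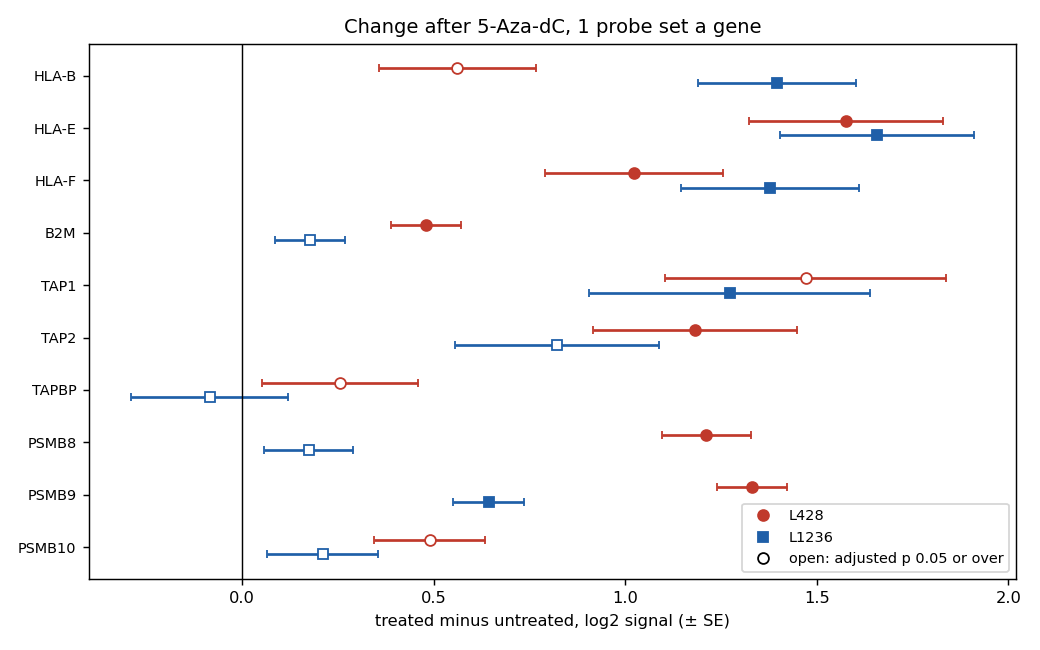
Change of each gene, treated minus untreated log2 signal ± SE from limma (n = 3 arrays a group), with L428 as circles above L1236 as squares. Filled marks had an adjusted p under 0.05. PSMB8 and PSMB9 changed more in L428 and HLA-E by a similar amount in both lines.

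Probe sets were also tested one by one, with p-values adjusted over all 54613. In L428 7 of the 23 rose, where 1.82% of all probe sets rose, 1.20% fell and 3.02% were called either way. In L1236 11 of the 23 rose, where 4.58% rose, 4.44% fell and 9.02% were called either way. Of the 23, 0 fell in either line. The 7 in L428 were the 3 of HLA-E, 2 of B2M, and those of PSMB8 and PSMB9. The 11 in L1236 were all 9 of the heavy chain genes, 1 of B2M and that of PSMB9. Of these 9, only 200904_at of HLA-E and 221978_at of HLA-F lack the mark for several transcripts. The others may read related heavy chains, so they need not be separate rises. Every treated array lay above every untreated array for 19 of the 23 in L428, against 6.41% of all probe sets, and for 15 in L1236, against 10.3%. With the arrays numbered 1 left out, 19 rose in L428 and 18 in L1236, in a fit in which 8.46% and 10.7% of all probe sets rose.

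**Figure D3:**
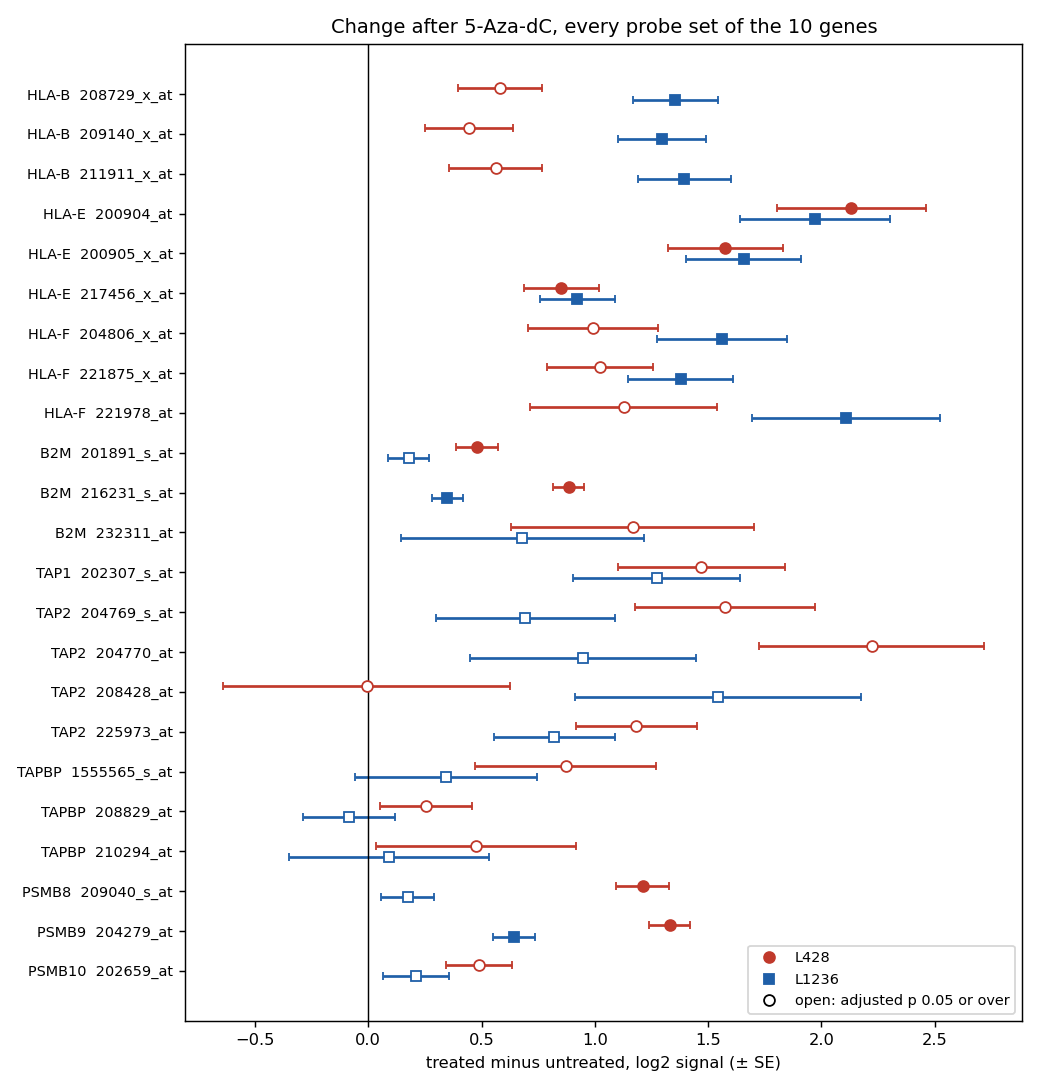
Change of all 23 probe sets of the 10 genes, treated minus untreated log2 signal ± SE (n = 3 arrays a group), L428 as circles above L1236 as squares, filled where the adjusted p over all probe sets was under 0.05. All 9 probe sets of HLA-B, HLA-E and HLA-F are filled for L1236, while for L428 those of HLA-E are filled and those of HLA-B and HLA-F are open.

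The untreated lines differed for 7 of the 10 genes. Of the 10, 5 were higher in untreated L1236 than in untreated L428 (PSMB8, TAP2, PSMB9, TAP1 and B2M) and 2 were lower (HLA-B and HLA-F), against 15.2% and 13.6% of all genes, or 28.8% either way. Of their probe sets 10 were higher and 6 lower, against 11.2% and 9.89% of all, or 21.1% either way. PSMB8 averaged 12.93 ± 0.06 (SD, n = 3) in untreated L1236 and 10.53 ± 0.15 in untreated L428, a difference of 2.40 ± 0.12 (SE), or 5.28-fold (limma adjusted p = 5.40e-07). PSMB9 was higher in L1236 by 2.13 ± 0.09 (adjusted p = 2.58e-07), TAP1 by 2.13 ± 0.37 (0.00189) and TAP2 by 2.16 ± 0.27 (2.42e-04), adjusted p-values in brackets. These genes were thus more than 4-fold brighter in untreated L1236, and no array of one line overlapped the other. HLA-F was lower in L1236, by -1.46 ± 0.23 or 2.75-fold (adjusted p = 0.00118), and HLA-B by -1.34 ± 0.21 or 2.53-fold (adjusted p = 9.37e-04). B2M was higher in L1236 by 0.52 ± 0.09 (adjusted p = 0.00204), a call lost when its probe sets were averaged (0.0733). On its set 216231_s_at the difference was larger, at 1.43 ± 0.07 (limma adjusted p over all probe sets = 9.85e-07). The dimmer set 232311_at had -0.15 ± 0.54 (adjusted p = 0.880). HLA-E, TAPBP and PSMB10 did not pass, with differences of 0.070 ± 0.25, 0.35 ± 0.20 and 0.13 ± 0.14. TAPBP was however higher in L1236 with averaged probe sets (1.24, limma adjusted p = 0.0123). Tested one by one, 2 of its 3 probe sets were called higher there. All 7 calls held without each single array in turn, the one with conflicting labels included.

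The groups were set in order on the probe set used for each gene. PSMB8, PSMB9, TAP1, TAP2 and B2M ran from treated L1236 through untreated L1236 and treated L428 to untreated L428. For PSMB8, PSMB9, TAP1 and TAP2 every treated L428 array lay below every untreated L1236 array on these sets, while B2M overlapped there. Other sets varied. Treated L428 was below on 204770_at of TAP2 but overlapped on 204769_s_at and 208428_at. For B2M it was below on 216231_s_at and above on 232311_at. PSMB8 overlapped between treated and untreated L1236. HLA-F ran from treated L428 through untreated L428 and treated L1236 to untreated L1236, with the middle groups at means of 12.68 and 12.60 and overlapping arrays. HLA-B ran from treated L428 through treated L1236 and untreated L428 to untreated L1236, and its upper 3 groups overlapped with their neighbours except treated and untreated L428. Between the treated lines, L1236 minus L428, the differences of the means were -0.51 for HLA-B, against -1.34 between the untreated lines, and 1.36 for PSMB8, against 2.40. These pairs share arrays with the responses above and were not tested against each other.

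**Figure D4:**
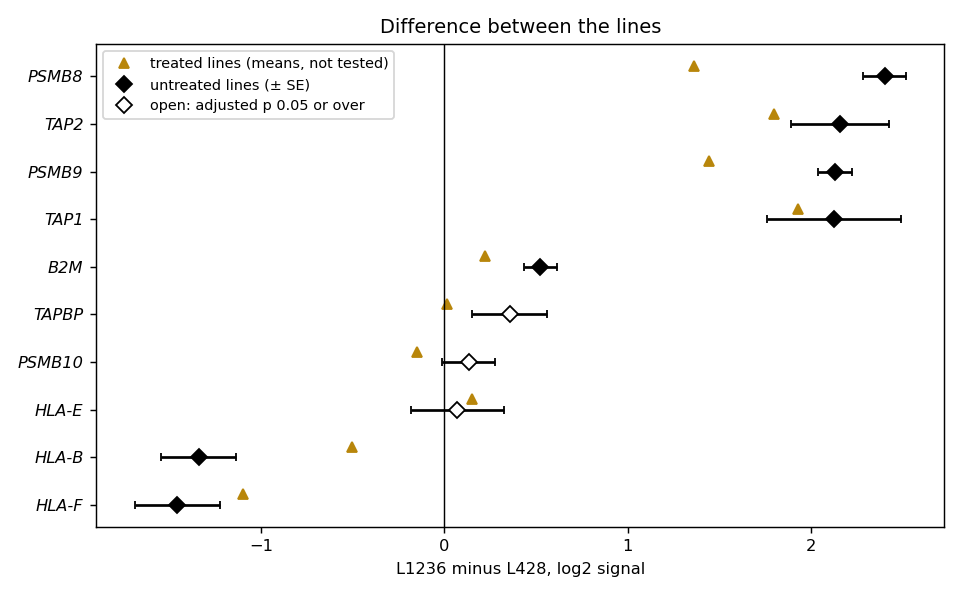
Difference between the lines, L1236 minus L428, in log2 signal, with triangles for the means of treated cells and diamonds for untreated cells ± SE (n = 3 arrays a group), filled where the adjusted p was under 0.05. PSMB8, TAP2, PSMB9 and TAP1 lie to the right, above 2 in untreated cells, and HLA-B and HLA-F to the left.

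The response itself differed between the lines for 2 of the 10 genes, PSMB8 and PSMB9, both smaller in L1236, where 1.96% of all genes had a smaller and 2.66% a larger response, 4.62% together. Of the probe sets 3 passed, all smaller in L1236 (PSMB8, PSMB9 and 1 of B2M), against 1.15% smaller, 1.42% larger and 2.57% together. For the other 8 genes the difference of the responses lay between -0.36 and 0.83 and did not pass. Without treated L1236 replicate 1, 3 of the 10 genes passed, 2 with a smaller and 1, HLA-B, with a larger response in L1236. In that fit 954 of 19775 genes had a smaller and 1158 a larger response. Of the probe sets 8 then passed, 3 smaller and 5 larger. That count stands without its background, since calls over all probe sets are not given for that fit. The responses and the untreated levels are made from the same untreated arrays, so no relation between them was drawn.

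Both other class I heavy chains measured, on probe sets marked as matching several transcripts, rose in L1236 and passed in 0 cases in L428, where 1 had an unadjusted p under 0.05. HLA-C, a classical chain, rose in L1236 by 1.11 ± 0.17 (limma adjusted p = 0.00358) and had a difference of 0.39 ± 0.17 in L428 (adjusted p = 0.256). HLA-G, whose expression is otherwise known from the placenta, rose in L1236 by 1.13 ± 0.18 (adjusted p = 0.00409), with 0.57 ± 0.18 in L428 (adjusted p = 0.119). Because of the shared matches, a rise of HLA-G itself cannot be told apart from one of other chains. Both genes rose in both lines without the arrays numbered 1, where 14.4% of all genes rose in L428 and 16.7% in L1236.

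Of 15 class I-like genes measured, 2 rose in L428 and 1 in L1236, and 0 fell (medians 0.062 and -0.0077). MICB, a stress ligand of the NK receptor NKG2D, rose in L428 by 0.97 ± 0.14 (limma adjusted p = 0.00626), with arrays at 11.90, 12.39 and 12.42 treated against 11.31, 11.17 and 11.34 untreated. In L1236 its difference was 0.12 ± 0.14 (adjusted p = 0.566), and the L1236 response was smaller by -0.85 ± 0.20 (adjusted p = 0.0475). MR1, which presents vitamin B metabolites to MAIT cells, rose in L428 by 1.22 ± 0.23 (adjusted p = 0.0217), with 0.0032 ± 0.23 in L1236 (adjusted p = 0.993) and a difference of the responses that did not pass (adjusted p = 0.0796). ULBP2, another NKG2D ligand, rose in L1236 by 3.47 ± 0.46, or 11.1-fold (adjusted p = 0.00156), and had 1.90 ± 0.46 in L428 (adjusted p = 0.0524). Of the 15, 4 rose in L428 and 3 in L1236 without the arrays numbered 1, where 14.4% and 16.7% of all genes rose.

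Of 13 measured subunits of the 20S core, limma called 0 in L428, with 3 at an unadjusted p under 0.05, and 2 lower in L1236 (medians 0.055 and -0.13). PSMB7, the subunit that PSMB10 replaces, fell in L1236 by 0.81 ± 0.14 on the log2 scale (adjusted p = 0.00526), to 12.40, 12.15 and 11.92 in treated cells, against 12.97, 13.01 and 12.92 untreated. PSMB6, the counterpart of PSMB9, fell in L1236 by 0.67 ± 0.16 (adjusted p = 0.0214), with 11.62, 11.51 and 11.42 treated against 12.17, 12.22 and 12.16 untreated. In L428 PSMB7 had a difference of -0.17 ± 0.14 and PSMB6 of -0.37 ± 0.16, and treated replicate 1 read 13.66 and 13.14, among or above the untreated arrays. PSMB5, the counterpart of PSMB8, had 0.11 ± 0.14 in L428 and -0.036 ± 0.14 in L1236 (adjusted p = 0.684 and 0.870). Leaving out the arrays numbered 1, 1 subunit rose in L428 and PSMB6 fell (-0.60 ± 0.080, adjusted p = 0.00457), and 5 fell in L1236. That fit called 14.4% of all genes higher and 14.6% lower in L428, and 16.7% higher and 17.7% lower in L1236.

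Of 19 measured subunits of the 19S cap, which feeds proteins into the core, 1 fell in each line, the ATPase gene PSMC6 in both (-0.48 ± 0.10 in L428 and -0.57 ± 0.10 in L1236, limma adjusted p = 0.0307 and 0.00594), with list medians of -0.13 and -0.10. When the arrays numbered 1 were left out, 9 of them fell in L428, and 2 rose and 8 fell in L1236. Of all genes 14.4% rose and 14.6% fell in L428 in that fit, and 16.7% rose and 17.7% fell in L1236. Among 9 activators and assembly factors PSMF1, a proteasome inhibitor, rose in L428 by 0.67 ± 0.14 (adjusted p = 0.0307), and the assembly chaperone gene PSMG3 fell in L1236 by 0.37 ± 0.10 (adjusted p = 0.0353), with list medians of 0.15 in L428 and -0.14 in L1236. Leaving out the arrays numbered 1, 2 rose and 2 fell in L428, and 3 rose and 2 fell in L1236. PSME1, a subunit of the interferon-inducible PA28 cap, had 0.15 ± 0.12 in L428 and 0.20 ± 0.12 in L1236 (adjusted p = 0.556 and 0.285). PSMA8, a core subunit of the testis, rose in L1236 by 2.61 ± 0.34 (adjusted p = 0.00135), to 6.53, 4.87 and 5.89 in treated cells, against 3.15, 3.15 and 3.16 untreated. It stayed between 3.11 and 3.50 on all L428 arrays, with a difference of -0.13 ± 0.34.

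**Figure D5:**
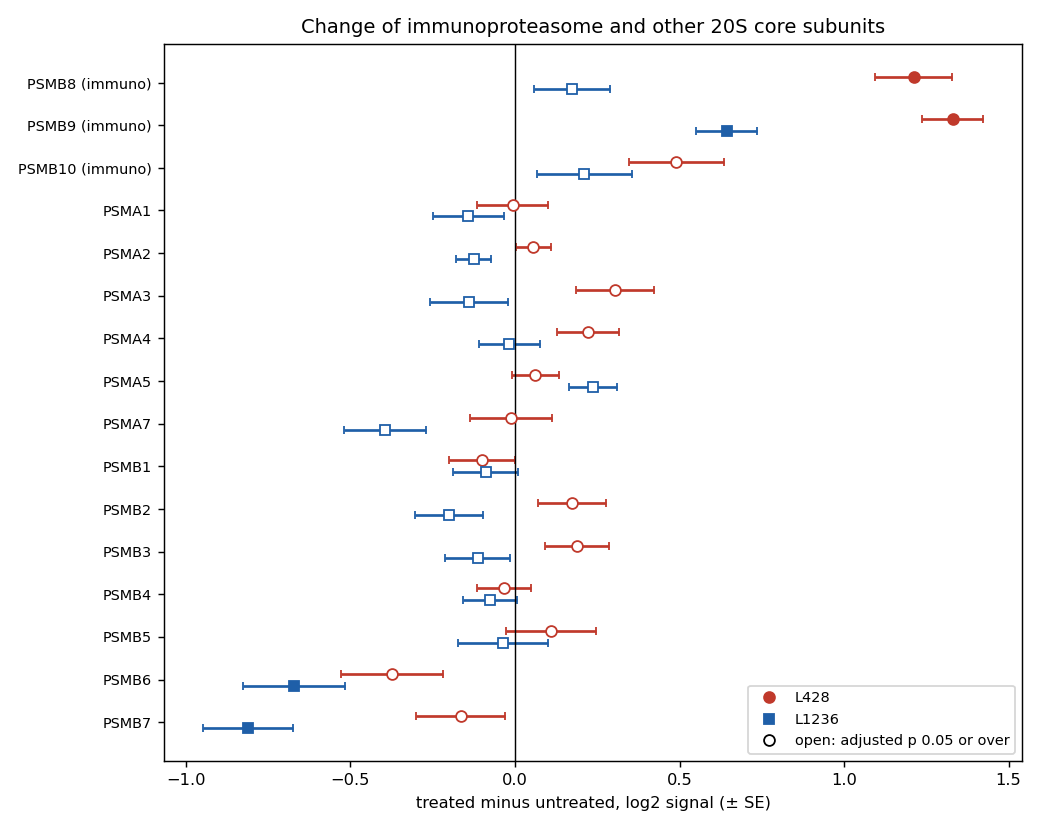
Change of the 3 immunoproteasome subunits, at the top, and of 13 other subunits of the 20S core, treated minus untreated log2 signal ± SE (n = 3 arrays a group), L428 as circles above L1236 as squares, filled where the adjusted p was under 0.05. PSMB8 and PSMB9 stand to the right in L428, and PSMB6 and PSMB7 to the left in L1236.

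Of 12 genes of peptide trimming and loading, limma called 0 in L428, with 2 at an unadjusted p under 0.05, and 1 rose and 2 fell in L1236 (medians 0.12 and -0.12). UGGT1, a glycoprotein folding sensor, fell in L1236 by 0.95 ± 0.14 (adjusted p = 0.00288), and the cytosolic peptidase gene TPP2 fell by 0.74 ± 0.07 (adjusted p = 2.72e-04). TPP2 had -0.14 ± 0.07 in L428, and its responses differed, L1236 minus L428, by -0.60 ± 0.10 (adjusted p = 0.0131). The chaperone gene CANX rose in L1236 by 0.43 ± 0.11 (adjusted p = 0.0277), a call lost without the arrays numbered 1 (0.105), where 2 genes of the list rose in L428, and 1 rose and 3 fell in L1236. Of 10 genes of the class II region around TAP and PSMB8, 1 rose in L428 and 0 in L1236, where 2 passed at an unadjusted p under 0.05 (medians 0.47 and -0.0067). HLA-DOB, which lies next to TAP2 and encodes a chain of a class II loading regulator, rose in L428 by 1.76 ± 0.30 (adjusted p = 0.0144), and had 1.03 ± 0.30 in L1236 (adjusted p = 0.0532). With the arrays numbered 1 left out, 3 of the 10 rose in L428, and 3 rose and 3 fell in L1236. Beside both lists, 14.4% of all genes rose and 14.6% fell in L428 in that setting, and 16.7% rose and 17.7% fell in L1236.

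Among 18 transcription factors of class I genes 3 rose in L428 and 5 in L1236, and 0 fell (medians -0.0012 and 0.0080). IRF9, the DNA-binding part of the interferon-activated complex ISGF3, rose by 3.41 ± 0.43 in L428 (limma adjusted p = 0.00308) and 1.61 ± 0.43 in L1236 (adjusted p = 0.0381). IRF1, which binds ISRE-type sites, read 9.25, 10.29 and 10.25 in treated L428 against 8.51, 8.33 and 8.42 untreated, and 10.79, 11.54 and 11.78 in treated L1236 against 9.17, 8.82 and 8.97 untreated. It rose by 1.51 ± 0.31 in L428 (adjusted p = 0.0311) and 2.38 ± 0.31 in L1236 (adjusted p = 0.00156), with replicate 1 the lowest treated array in both. NLRC5, the class I transactivator, read 8.19, 8.39 and 8.41 in treated L428 against 7.62, 6.44 and 6.54 untreated, a rise of 1.46 ± 0.31 (adjusted p = 0.0316). In L1236 NLRC5 read 8.05, 8.55 and 8.72 treated against 7.87, 8.27 and 8.23 untreated, a difference of 0.32 ± 0.31 (adjusted p = 0.488). It was higher in untreated L1236 than in untreated L428, by 1.25 ± 0.31 (adjusted p = 0.0124), and its responses did not differ by the test, at -1.14 ± 0.43 (adjusted p = 0.209), but did so without the arrays numbered 1 (-1.52 ± 0.098, adjusted p = 7.06e-04). NFKB1, an NF-kappaB subunit, rose in L1236 by 1.45 ± 0.38 (adjusted p = 0.0329), with 0.026 ± 0.38 in L428 (adjusted p = 0.981) and responses that did not differ by the test (adjusted p = 0.203). Without the arrays numbered 1 the responses also differed for NFKB1 (1.96 ± 0.075, adjusted p = 1.56e-04), IRF9 (-2.05 ± 0.27, 0.00631) and IRF1 (0.87 ± 0.14, 0.0110). That fit called 4697 of all genes for the difference of the responses. When the arrays numbered 1 were left out, 5 of the 18 rose and 5 fell in L428, where 14.4% of all genes rose and 14.6% fell, and 7 rose and 4 fell in L1236, where 16.7% rose and 17.7% fell.

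The mean of the 10 genes, each centred on its own mean, was -0.05, 0.27 and 0.30 in treated L428 against -0.77, -0.94 and -0.65 untreated, and 0.43, 0.76 and 0.87 in treated L1236 against -0.06, -0.04 and -0.13 untreated. Replicate 1 was the lowest treated array of each line in this mean. Of all other genes TBX21, which encodes the transcription factor T-bet, had the profile most like it over the 12 arrays (Pearson's r = 0.995), followed by CHMP1B (0.972), HEG1 (0.971), SVIL (0.970) and TNFSF9 (0.969). Within lines, over 6 arrays each, r for TBX21 was 0.994 in L428 and 0.998 in L1236, and 0.962 over all arrays with group means removed. These values describe 12 arrays that share their groups and replicate numbers. TBX21 read 5.59, 6.76 and 6.67 in treated L428 against 3.91, 3.65 and 4.08 untreated, and 7.22, 8.35 and 8.57 in treated L1236 against 5.99, 5.86 and 5.69 untreated.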

How the data were processed

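Transcript levels were measured on 12 arrays. The authors deposited log2 signals that, per the submitters' processing notes, came from RMA, robust multichip averaging; its version and any further scaling or centring are not given in the sources used here. Probe set names match a 3′ expression array, whereas the design text speaks of a whole-transcript one, a conflict that was not resolved. Of 54675 probe sets, 62 controls were left out. By the platform annotation 41097 probe sets had 1 gene symbol, 1801 had several and 11777 had none; symbols were updated by Entrez identifier through RefSeq (GRCh38.p14), which also gave positions and promoters. Each gene was read from its probe set of highest mean signal, and no dim gene was removed.

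All 12 arrays entered 1 limma fit of the 4 group means (limma 3.58.1 in R 4.3.3), with two-sided tests and Benjamini-Hochberg adjustment over 19775 genes or 54613 probe sets, and calls at an adjusted p under 0.05. The code was tested on simulated data. Titles number the arrays 1 to 3 in each group. Deviations of same-numbered arrays correlated at 0.164 to 0.250 between treated and untreated L428. They did so at 0.243 to 0.400 between the treated lines and at 0.107 to 0.360 between the untreated lines. Between treated and untreated L1236 the values were -0.018 to 0.063. Between treated L428 and untreated L1236 they were -0.122 to 0.021, and between untreated L428 and treated L1236 0.051 to 0.235. Within L1236 and between treated L428 and untreated L1236 the numbers thus did not behave like pairs. They did so within L428 and between the lines under the same treatment. The reported fit used no pairs, so its p-values leave this likeness out. The block, an alternative only, pairs the numbers over all 12 arrays, L1236 included. Alternatives were cyclic loess, removal of dim genes, replicate number as a block, array weights, averaged probe sets, fits of 2 groups, and leaving out arrays; list counts without certain arrays were added after seeing the data. Named beside the 10 genes are up to 3 called genes per list and line with the largest changes, all of short lists, a few fixed genes, and the 5 genes with the most similar profile; cell type markers were named after their values were seen. The members and the 9 pathway lists were chosen with earlier results of these data known. The number of arrays limits the precision.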

Additional observations from a re-analysis of the deposited data

Results flagged for a closer look

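The response to 5-Aza-dC differed between the lines, by the interaction term of the limma fit, for 2 of the 10 genes and for 7 of the other genes named. PSMB8 had a response in L1236 that was smaller than in L428, at -1.04 ± 0.16 (adjusted p = 0.0102), as did PSMB9 at -0.69 ± 0.13 (adjusted p = 0.0229). MICB, the stress ligand, likewise had -0.85 ± 0.20 (adjusted p = 0.0475), and TPP2, the peptidase gene, had -0.60 ± 0.10 (adjusted p = 0.0131) with its fall in L1236. PSMA8, the testis subunit, had 2.74 ± 0.47 (adjusted p = 0.0155), rising in L1236. ERAP1, a peptide-trimming gene, had -1.04 ± 0.21 (adjusted p = 0.0304). Among the cell markers named, the chemokine gene CCL17 had 2.29 ± 0.28 (adjusted p = 0.00298), CD3D had 2.72 ± 0.60 (adjusted p = 0.0390) and CD8A had 3.37 ± 0.23 (adjusted p = 9.15e-05), all with the larger response in L1236. Without the arrays numbered 1 the differences of MICB, TPP2 and PSMA8 were -0.95, -0.61 and 2.42 and stayed past the threshold.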

How the results depend on the processing

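Over 19 alternative settings the 10 genes gave 750 values beside those reported, of which 660 kept direction and side of the threshold, 51 lost a call, 24 gained one and 15 changed sign. Some settings have fewer arrays or genes by construction, and the cause of these changes was not tested. Without the arrays numbered 1, 5717, 6817 and 4697 genes were called for L428, L1236 and the difference of the responses, with 8 of the 10 genes in L1236 and 19, 18 and 5 of their 23 probe sets. Array weights gave 5103, 9469 and 4389 genes and 18, 18 and 8 probe sets, with 4 of the 10 genes for the difference of the responses. With cyclic loess, without dim genes or with the replicate block, 1 gene and 1 probe set passed for that difference. Of all genes 845, 689 and 781 did so, and PSMB9 had an adjusted p = 0.0519 with the block. The block gave TAP2 an adjusted p = 0.0387 in L1236 and changed no other call of the 10 genes beside those of PSMB9 and TAP1. Without dim genes 7 of the 10 genes rose in L428, where 750 of all genes rose, and 12 of the probe sets did. Averaged probe sets left 3 genes higher in L428, beside 614 of all genes. With only 2 groups in the fit, L428 had 206 genes, 2 of the 10 and 3 probe sets. L1236 had 2348 genes and 6 probe sets. Beyond the fit without the arrays numbered 1, calls over all probe sets are not given for these settings or those below. The probe set counts there stand without that background.

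Leaving out 1 array at a time, the numbers of all genes called were 368 to 3532 in L428, 1506 to 4488 in L1236, 442 to 2112 for the difference of the responses and 4858 to 6237 between the untreated lines. Of the 10 genes, 2 to 7, 4 to 6, 1 to 3 and 7 were called, and of the 23 probe sets 3 to 12, 8 to 13, 1 to 8 and 15 to 16. The extremes of the member counts in L428 came without treated L428 replicate 3 (2 genes) and without treated replicate 1 of either line (7 genes each).

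Values that changed sign were not called before or after. For TAP1 the difference of the responses was 0.14 with array weights, 0.017 without the arrays numbered 1 and -0.51 to 0.16 without single arrays, the highest without treated L1236 replicate 1. For HLA-E it was -0.0028 with averaged probe sets and -0.16 to 0.30 without single arrays, the lowest without treated L428 replicate 1. Between the untreated lines HLA-E had -0.15 with array weights, -0.0084 without the arrays numbered 1 and -0.078 to 0.19 without single arrays, the lowest without untreated L428 replicate 2, and PSMB10 had -0.033 to 0.22, the lowest without untreated L428 replicate 1. TAPBP had 0.12 in L1236 with averaged probe sets and -0.013 to 0.39 in L428 without single arrays, the lowest without untreated L428 replicate 2. B2M and the heavy chain genes lie in the upper part of the signal range, and how far that limits their changes was not tested.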

Other observations

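ERAP1 and ERAP2, the aminopeptidases that trim class I peptides in the endoplasmic reticulum, were named after their values were seen. ERAP2 averaged 10.58 in untreated L1236 and 5.05 in untreated L428, a difference of 5.53 ± 0.30 (limma adjusted p = 1.23e-06). After treatment ERAP2 had a difference of -0.55 ± 0.30 in L1236 and 1.10 ± 0.30 in L428, neither of which passed (adjusted p = 0.260 and 0.0807). ERAP1 had -0.51 ± 0.15 in L1236 and 0.52 ± 0.15 in L428, neither of which passed, while the responses themselves differed by -1.04 ± 0.21 (adjusted p = 0.0304).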
